A study of Homo sapiens with 6 samples.

Results

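Genes of the COPI coat, the COPII coat and Golgi transport were examined in HCT116, a human colorectal carcinoma cell line, in the authors' comparison of samples labelled Rab27B KO with samples labelled wild type. The members were all genes in the authors' 2 deposited tables whose symbols begin with or equal the names of these families: SEC11, SEC13, SEC16, SEC22, SEC23, SEC24, SEC31, SEC61, SEC62, SEC63, SAR1, the COP subunits, TRAPPC, TMED, ARF1 to ARF5, ARFGAP, ARFGEF, GOLG, GORASP and COG1 to COG8. They were 53 of the 7681 listed genes, 52 typed as mRNA and 1 as a pseudogene. The name pattern also takes in the SEC61 translocon and the SEC11 signal peptidase, which act before the coats.

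RNA was sequenced from 6 untreated cultures grown for 48 hours. There were 3 of HCT116 cells in which RAB27B, a small GTPase of secretory vesicles, had been targeted by CRISPR/Cas9, and 3 of the wild-type line. Whether the edited cells were 1 clone or a pool was not given in the sources used here. Both tables give each gene's log2 fold change with its q-value, for genes that passed q = 0.05 in the authors' test, and no value per sample, so neither the spread between replicates, the depth nor a standard error can be given. Every gene named here as higher or lower is one that passed that test. Genes in neither table were either not past the threshold or not in the comparison, and their values are not analysed here.

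The targeted gene went against its label. The authors' deposited table gives RAB27B at 36.7-fold higher RNA in samples labelled Rab27B KO, which is 5.20 on the log2 scale (q listed as 0). Directions below are those of the column headers, the samples labelled Rab27B KO over those labelled wild type. Were the labels or the ratio exchanged, every gene given here as higher would be lower and every lower one higher, shares and largest changes included. The tables do not settle which holds. Of 13 markers of colon epithelial lines, 4 were listed as higher and 4 as lower. The higher ones were the keratins KRT20, KRT8, KRT19 and KRT18, at log2 fold changes of 2.08, 0.61, 0.52 and 0.47 per the authors' deposited table. The lower ones were HNF4A, at a log2 fold change of -2.97, the adhesion molecules EPCAM and CDH1, each at -1.15, and CDX2, at -0.75 per the authors' deposited table. The markers CDX1, VIL1, LGALS4, CDH17 and GPA33 were in neither table. Of 11 markers of other cell types, DES and COL3A1 were listed as higher and COL1A1 as lower, and PTPRC, CD3E, CD14, PECAM1, VWF, PDGFRB, ALB and NEFL were in neither table. What part such differences between the cultures have in the results below was not tested.

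Secreted and membrane proteins enter the endoplasmic reticulum (ER) through the SEC61 channel, where signal peptidase removes their signal peptides. They leave the ER in COPII vesicles: the GTPase SAR1 recruits the inner coat of SEC23 and SEC24, which binds cargo, and the outer coat of SEC13 and SEC31 forms a cage around it, at exit sites organised by SEC16. COPI vesicles, whose coat is recruited by ARF GTPases, carry receptors and escaped ER proteins back from the Golgi. The p24 proteins (TMED genes) cycle between both compartments as cargo receptors, and TRAPP, the COG complex and the golgins tether vesicles to Golgi membranes. In an intestinal carcinoma line this route supplies mucins, adhesion receptors, secreted factors and lysosomal enzymes.

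A short promoter sequence recurred near the transcription starts of several coat genes. The choice of members by name did not use it, but it was 1 of 11 motifs chosen with the values known. RefSeq promoter windows, 250 bases before to 50 after each start on GRCh38.p14, were found for 44 of the 53 members. TMED9, TMED4, ARF4, ARFGAP1, ARFGEF1, GOLGA7, GOLGA8A, GOLGA6L19 and SEC22B2 had no entry. The motif TGACGTG, the core of the unfolded protein response element to which XBP1 and ATF6 are known to bind, was searched on both strands. It occurred 13 times in 12 members. Each match is printed below as 30 bases read along the strand on which the motif appears as TGACGTG, with those letters in capitals and the strand of the printed bases given.
COPA, chr1:160343227-160343256, minus strand: gagagggtcgcTGACGTGgaggcgtccgaa
COPB2 proximal match, chr3:139389632-139389661, plus strand: gtcagactgacTGACGTGgaacttccggga
COPB2 distal match, chr3:139389825-139389854, plus strand: actaagggccgTGACGTGgtgccgctgagc
COPE, chr19:18919373-18919402, minus strand: ttgcttccggcTGACGTGtctttcaggaag
SEC13, chr3:10321238-10321267, plus strand: ctatcctccagTGACGTGcgagaccagagg
SEC23A, chr14:39103221-39103250, minus strand: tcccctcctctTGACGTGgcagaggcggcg
SEC24A, chr5:134648595-134648624, plus strand: gtgagagtcggTGACGTGgcggcgaggccg
SEC61A1, chr3:128052425-128052454, plus strand: cgggctagcacTGACGTGtctctcggcgga
ARF1, chr1:228082681-228082710, plus strand: cccggaggcgcTGACGTGgccgccgtcaga
ARFGEF3, chr6:138161901-138161930, plus strand: gggcgcggggcTGACGTGgcccgcggcatg
GOLGA5, chr14:92794115-92794144, minus strand: ctgcgtgcgtgTGACGTGgctcgccgccgg
SEC16A, chr9:136484707-136484736, plus strand: ttcagtccggcTGACGTGgcaccagggcca
SEC62, chr3:169966779-169966808, minus strand: ccggttccctcTGACGTGgagcgaggaggg

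Of these 12 genes the first 10 were listed as higher and SEC16A and SEC62 as lower. A further G follows the motif in 10 of the 13 matches. The match began within 27 bases of a start in 9 cases, and between 143 and 179 bases upstream of it in the other 4.

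To show the wider setting, the 250 bases before the most upstream start are printed for 3 members with a match and for TMED7, the member with the second largest rise, which had none. Bases are in the direction of the gene, and capitals mark the motif, which reads CACGTCA where it lies on the opposite strand.
COPB2, chr3:139389681-139389930, minus strand: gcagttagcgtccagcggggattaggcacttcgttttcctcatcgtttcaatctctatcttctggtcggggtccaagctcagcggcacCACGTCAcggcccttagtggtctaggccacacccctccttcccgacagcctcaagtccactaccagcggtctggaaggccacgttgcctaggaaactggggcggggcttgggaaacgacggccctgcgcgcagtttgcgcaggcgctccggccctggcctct
SEC13, chr3:10321113-10321362, minus strand: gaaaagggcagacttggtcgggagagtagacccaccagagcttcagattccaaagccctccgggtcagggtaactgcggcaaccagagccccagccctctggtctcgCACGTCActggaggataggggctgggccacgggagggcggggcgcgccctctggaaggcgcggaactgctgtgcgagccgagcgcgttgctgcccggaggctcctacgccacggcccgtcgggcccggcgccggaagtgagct
ARF1, chr1:228082458-228082707, plus strand: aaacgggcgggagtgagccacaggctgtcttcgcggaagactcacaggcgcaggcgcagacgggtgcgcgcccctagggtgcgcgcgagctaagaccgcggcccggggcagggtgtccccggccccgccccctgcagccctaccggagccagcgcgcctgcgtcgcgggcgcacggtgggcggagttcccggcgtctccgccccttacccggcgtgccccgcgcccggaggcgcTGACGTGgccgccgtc
TMED7, chr5:115626037-115626286, minus strand: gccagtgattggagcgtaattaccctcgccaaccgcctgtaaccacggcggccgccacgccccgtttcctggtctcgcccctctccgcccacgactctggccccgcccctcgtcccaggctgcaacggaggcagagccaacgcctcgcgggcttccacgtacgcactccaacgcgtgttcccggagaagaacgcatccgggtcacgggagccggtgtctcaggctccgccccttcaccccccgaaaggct
These windows are rich in G and C, at 62.4% for COPB2, 68.8% for SEC13, 77.2% for ARF1 and 68.4% for TMED7.

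By gene, the motif was present for 37.0% (10 of 27) of the members listed as higher and 11.8% (2 of 17) of those listed as lower. Among genes of the same name families in neither table, without the GOLGA6 and GOLGA8 copies, it was present for 11.1% (4 of 36), namely SEC16B, GORASP1, GOLGA1 and COPB1. Over all 15843 protein-coding genes with a window the share was 2.75% (436 genes). Over all listed protein-coding genes the share did not follow direction: it was 3.67% (115 of 3135) for higher and 3.60% (110 of 3054) for lower genes. The number of windows per gene averaged 1.30 for the higher members and 1.40 over all protein-coding genes. Counted by window, 34.3% (12 of 35) of the windows of higher members and 2.12% (471 of 22199) of all windows held the motif.

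Altogether 11 motifs were searched, chosen with the values known, and several overlap TGACGTG. The shorter core ACGTG was present for 74.1% (20 of 27) of higher members, 29.4% (5 of 17) of lower members and 28.5% of all protein-coding genes. The longer TGACGTGG was present for 25.9% (7 of 27), 11.8% (2 of 17) and 1.05% of the same groups, and TGACGT for 51.9% (14 of 27), 17.6% (3 of 17) and 11.7%. Among genes of the same name families in neither table, without the GOLGA6 and GOLGA8 copies, ACGTG was present for 18 of 36. In that group TGACGT was present for 22.2% (8 of 36) and TGACGTGG for 8.33% (3 of 36). Each of these shares was above that of all protein-coding genes. The full cAMP response element TGACGTCA was present for 1 member, TRAPPC1, against 3.00% of all protein-coding genes. The ER stress response elements ERSE (CCAAT and CCACG with 9 bases between them) and ERSE-II (ATTGG and CCACG with 1 base between them) were found in no member window and for 0.133% and 0.0947% of all protein-coding genes. The lysosomal CLEAR element, searched as the E-box CACGTG preceded by GT and followed by AC, was found for TRAPPC2L, a lower member, and for 0.638% of all protein-coding genes. The E-box CACGTG was present for 13.6% of members and 10.9% of all protein-coding genes, the CCAAT box CCAAT for 36.4% and 42.1%, and the hypoxia response core GCGTG for 54.5% and 50.4%. These matches describe letters near a start, and no binding was measured.

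**Figure D1:**
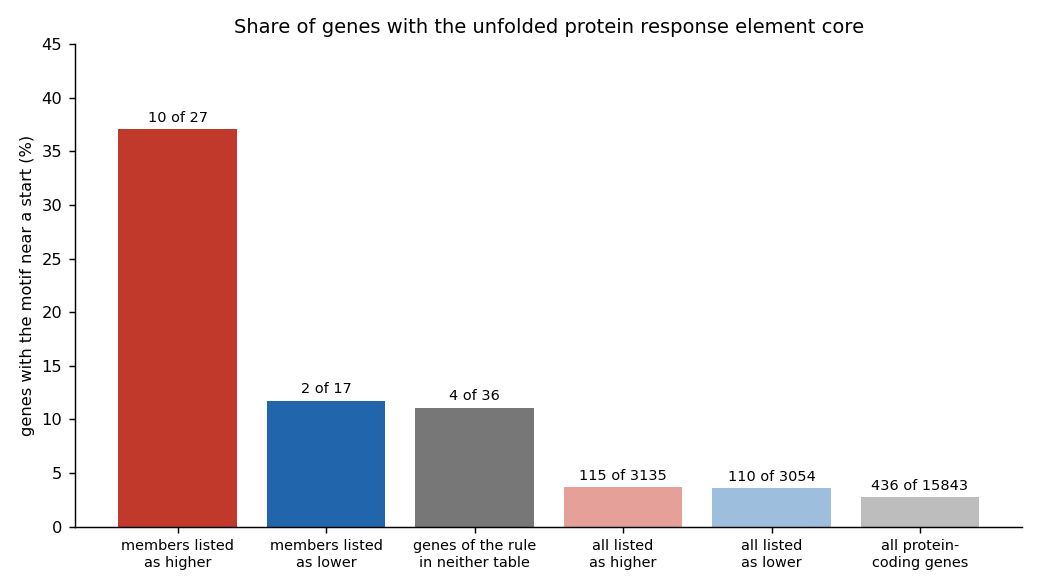
Share of genes, in percent, with TGACGTG on either strand in a window of 250 bases before to 50 after a RefSeq start, with the number of genes over each bar. Members listed as higher stand at 37.0%, members listed as lower at 11.8%, and all protein-coding genes at 2.75%.

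Of the 53 members 33 were listed as higher and 20 as lower. That is 62.3% higher (95% Wilson interval 48.8 to 74.1%, covering counting error over genes only), beside 50.7% of all listed genes, and 37.7% lower beside 49.3%. The interval holds 50.7%, the share over all listed genes. Without the GOLGA6 and GOLGA8 copies and the pseudogene, an alternative chosen after seeing the data, 32 of 47 members were higher, or 68.1% (53.8 to 79.6%). The copies taken out were all lower, so the larger share and its interval follow in part from that choice. The median log2 fold change was 0.21 for the members and 0.12 for all listed genes per the authors' deposited tables. The changes were small: 38 of the 53 members had a log2 fold change below 0.5 in size. A fold change of at least 1.5 in either direction was listed for 17.0% of members, beside 30.8% of all listed genes. These were 2 higher members, TMED7 and GOLGA7B, and 7 lower ones, 4 of them GOLGA6 or GOLGA8 copies.

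The RefSeq genes with names of these families include 118 that code for protein, and 43.2% (51) of them were listed, beside 37.9% of all protein-coding genes. Without the GOLGA6 and GOLGA8 copies the share was 52.8% (47 of 89). The 37.9% also counts genes that may not have been in the comparison, and no such copies were taken out of it. The other 2 members are GOLGA6L19, whose gene ID was not in the table, and SEC22B2, a transcribed pseudogene there.

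**Figure D2:**
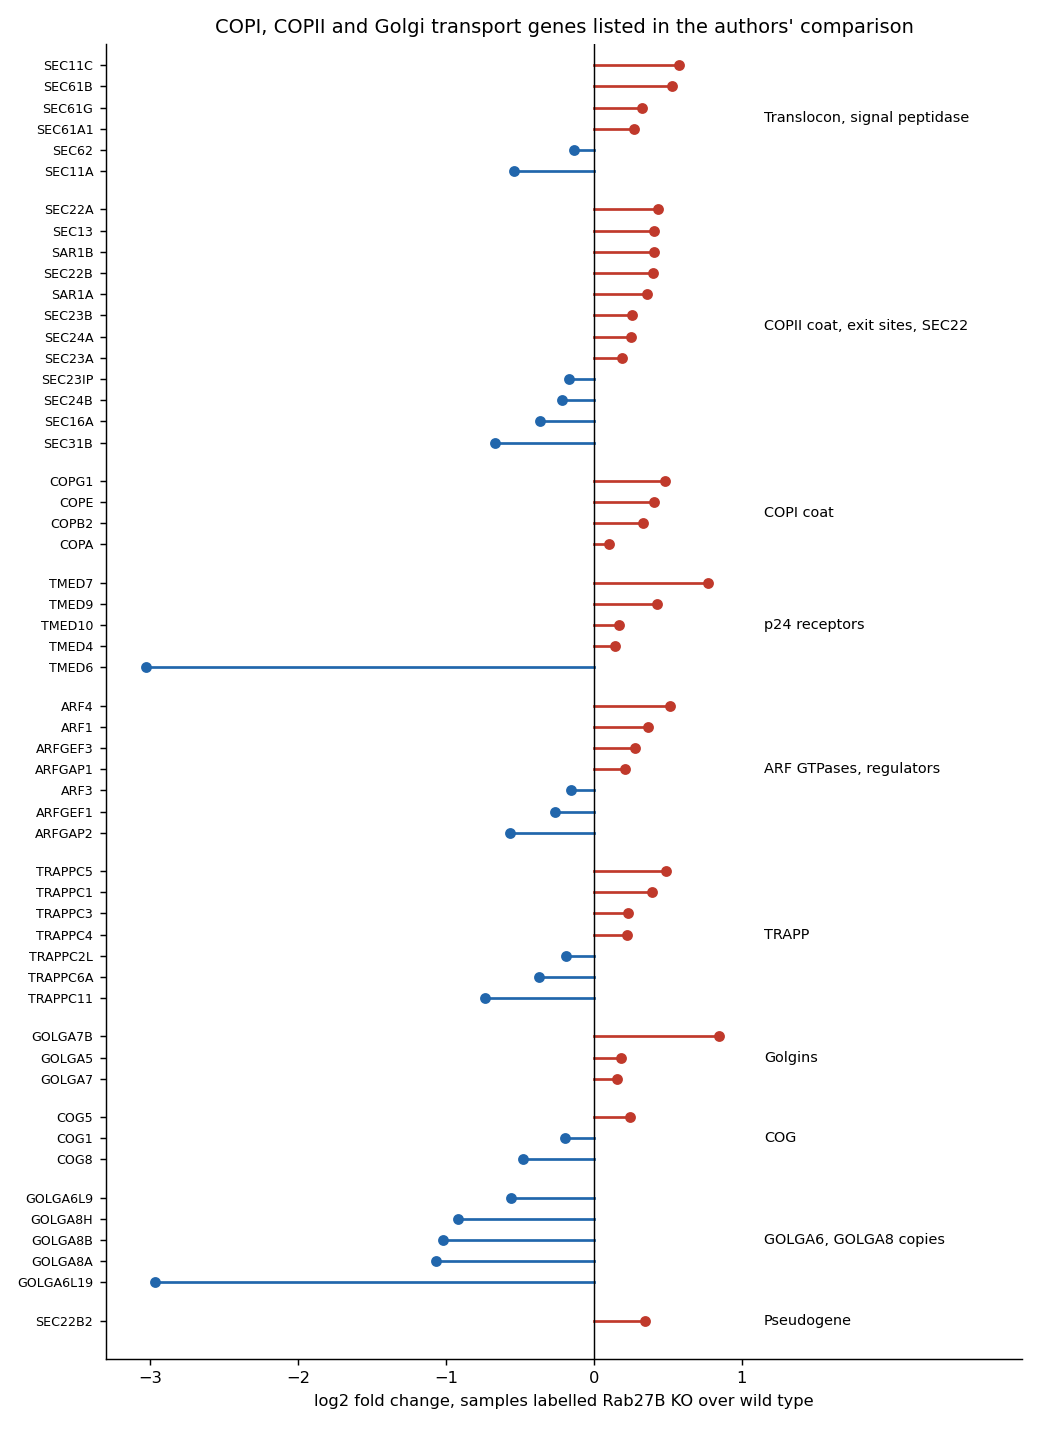
Log2 fold change of each of the 53 members, samples labelled Rab27B KO over wild type, by role, as given per the authors' deposited tables, with higher genes in red and lower genes in blue. Most points lie within 0.5 of 0, all 4 COPI genes are above 0, and TMED6 and GOLGA6L19 stand near -3.

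**Figure D3:**
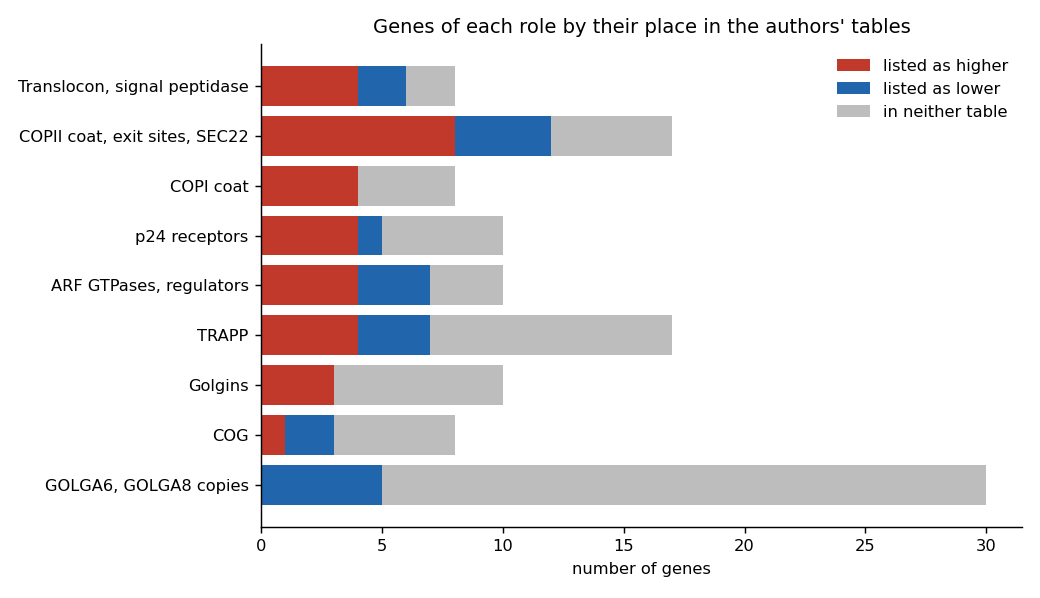
Number of genes of each role listed as higher (red), listed as lower (blue) or in neither table (grey), counting protein-coding genes of the reference and, among the copies, GOLGA6L19. The COPI coat and the golgin group, which takes in GOLGA7 and GOLGA7B by name, have no lower bar. The GOLGA6 and GOLGA8 copies have no higher one.

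The counts by role that follow are of few genes each. Beside them, 37.9% of all protein-coding genes were listed, and 50.7% of all listed genes were higher. Of 8 translocon and signal peptidase genes 4 were listed as higher and 2 as lower, with SEC61A2 and SEC63 in neither table. All 3 subunits of the main SEC61 channel were higher. SEC61B, the beta subunit, was 1.45-fold higher (q = 5.74e-17) per the authors' deposited table, SEC61A1, the pore-forming alpha subunit, 1.21-fold higher (q = 2.35e-16), and SEC61G, the gamma subunit, 1.26-fold higher. SEC62, which helps proteins enter after their synthesis, was 1.10-fold lower per the authors' deposited table. The 2 catalytic subunits of signal peptidase were listed in opposite directions. SEC11C was 1.49-fold higher (q = 3.73e-10) and SEC11A 1.45-fold lower (q = 1.15e-21) per the authors' deposited table.

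Of 17 genes of the COPII coat, its exit sites and the SEC22 family 8 were listed as higher and 4 as lower. Both SAR1 GTPases, both SEC23 paralogs and SEC13 were among the higher genes. SEC13, of the outer coat, was 1.33-fold higher (q = 3.83e-15), SAR1A 1.29-fold higher (q = 3.88e-12) and SAR1B 1.33-fold higher per the authors' deposited table. For the inner coat, SEC23B, SEC23A and the cargo-binding SEC24A were 1.20-fold, 1.14-fold and 1.19-fold higher per the authors' deposited table. The second cargo-binding paralog listed, SEC24B, was 1.16-fold lower per the authors' deposited table, and SEC24C and SEC24D were in neither table. SEC22B, the SNARE of ER and Golgi vesicles, was 1.32-fold higher per the authors' deposited table. SEC22A, a related protein, had the largest rise of the group at 1.35-fold (q = 5.24e-03) per the authors' deposited table.

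The other lower members of the same group belong to exit sites and the outer coat. SEC16A, the scaffold of exit sites, was 1.29-fold lower (q = 1.26e-15) and SEC23IP, a binding partner of SEC23, 1.12-fold lower per the authors' deposited table. SEC31B, a paralog of the main outer coat subunit, was 1.59-fold lower (q = 7.73e-06) per the authors' deposited table, while SEC31A, SEC16B and SEC22C were in neither. The pseudogene SEC22B2 was listed 1.27-fold higher (q = 0.0278) per the authors' deposited table. It is a near-identical copy of SEC22B, so reads could be shared between them and both values are uncertain.

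The listed genes of the COPI coat, 4 of 8, were all higher, beside 50.7% of all listed genes. COPG1, a gamma subunit, was 1.39-fold higher with the smallest q-value of any member (q = 2.63e-38) per the authors' deposited table. COPB2, the beta-prime subunit that binds retrieval signals, was 1.26-fold (q = 1.07e-13) and COPE, the epsilon subunit, 1.32-fold higher (q = 6.03e-13) per the authors' deposited table. COPA, the alpha subunit, was 1.07-fold higher (q = 0.0111) per the authors' deposited table, the smallest change of any member. COPB1, COPG2, COPZ1 and COPZ2 were in neither table, and their values are not analysed here. COPA, COPB2 and COPE have the TGACGTG match printed above and COPG1 has none.

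Of 10 p24 genes 4 were listed as higher and 1 as lower. TMED7 was 1.71-fold higher (q = 5.53e-37) and TMED9 1.35-fold higher (q = 1.51e-21) per the authors' deposited table. TMED10 and TMED4 were 1.13-fold and 1.11-fold higher per the authors' deposited table, and TMED1, TMED2, TMED3, TMED5 and TMED8 were in neither table. TMED7 lies wholly within the read-through gene TMED7-TICAM2, in neither table, so reads from exons they share cannot be told apart. Which exons they share was not compared. TMED6 had the largest fall of any member, at a log2 fold change of -3.03, but with q = 0.0460 per the authors' deposited table. The number of reads behind that fold is unknown.

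Of 10 ARF GTPases and regulators 4 were listed as higher and 3 as lower, with ARF5, ARFGAP3 and ARFGEF2 in neither table. ARF4 and ARF1, which recruit COPI, were 1.43-fold (q = 3.84e-21) and 1.29-fold (q = 1.79e-21) higher per the authors' deposited table, and ARF3 was 1.11-fold lower. The GTPase-activating proteins that act with COPI went apart, with ARFGAP1 1.16-fold higher and ARFGAP2 1.48-fold lower (q = 4.07e-17) per the authors' deposited table. Among the exchange factor family, ARFGEF3 was 1.21-fold higher and ARFGEF1, an activator of ARF at the trans-Golgi, 1.20-fold lower per the authors' deposited table.

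Of 17 TRAPP genes 4 were listed as higher and 3 as lower. TRAPPC1, TRAPPC3, TRAPPC4 and TRAPPC5, subunits of the core shared by both TRAPP complexes, were the higher ones. TRAPPC5 was 1.40-fold (q = 5.15e-11) and TRAPPC1 1.31-fold higher (q = 7.76e-19) per the authors' deposited table, with TRAPPC3 and TRAPPC4 each 1.17-fold higher. The core subunit genes TRAPPC2L and TRAPPC6A were 1.14-fold and 1.29-fold lower per the authors' deposited table. TRAPPC11, a subunit of TRAPPIII, was 1.67-fold lower (q = 1.64e-12) per the authors' deposited table. The TRAPPII subunits TRAPPC9, TRAPPC10 and TRAPPC14 and the TRAPPIII subunits TRAPPC8, TRAPPC12 and TRAPPC13 were in neither table.

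Most large golgins were in neither table, among them GOLGA2 (GM130), GOLGA1, GOLGA3, GOLGA4 and GOLGB1 (giantin), as were the stacking proteins GORASP1 and GORASP2. GOLGA5 (golgin-84) was 1.13-fold higher (q = 0.0165) per the authors' deposited table. GOLGA7, a partner of palmitoyltransferases, was grouped with the golgins by its name, as was its paralog GOLGA7B. GOLGA7 was 1.12-fold higher per the authors' deposited table with q = 0.0475, the member nearest to the threshold. Its paralog GOLGA7B had the largest rise of any member at 1.80-fold (q = 1.65e-03) per the authors' deposited table. Of the 8 COG subunits 1 was listed as higher and 2 as lower: COG5 was 1.18-fold higher, COG1 1.14-fold lower and COG8 1.39-fold lower (q = 1.46e-12) per the authors' deposited table.

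The 5 listed GOLGA6 and GOLGA8 copies were all lower. GOLGA8B and GOLGA8A were 2.03-fold (q = 1.06e-25) and 2.10-fold lower (q = 6.25e-18) per the authors' deposited table, GOLGA8H 1.89-fold and GOLGA6L9 1.48-fold lower. GOLGA6L19 was 7.82-fold lower (q = 2.37e-03) per the authors' deposited table. The GOLGA6 and GOLGA8 families each hold duplicated copies, so a read can fit several copies of a family, and these are not 5 independent values. How alike the copies are was not measured. The other 25 protein-coding copies in the reference were in neither table.

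**Figure D4:**
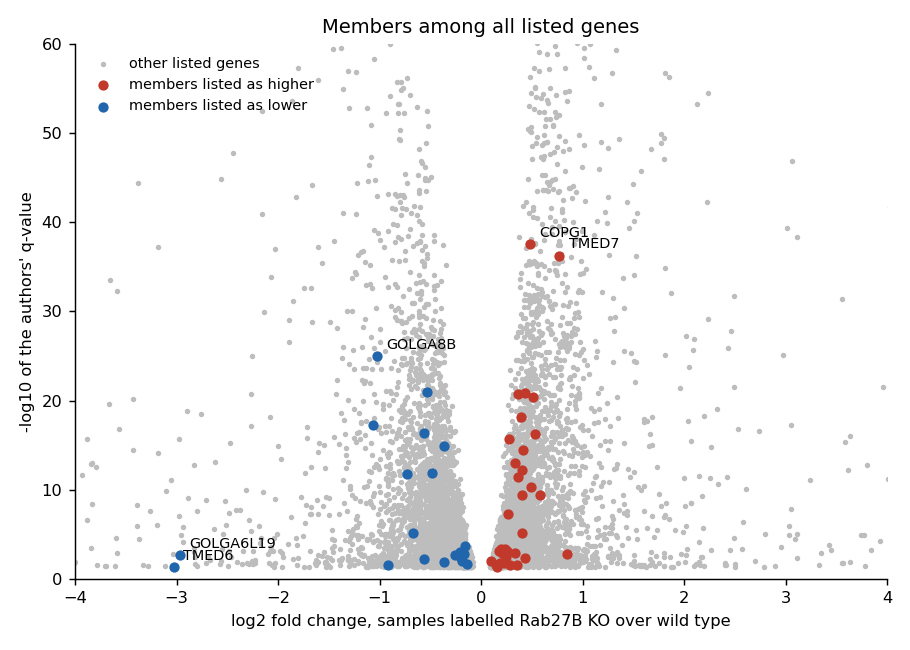
Log2 fold change against -log10 of the q-value per the authors' deposited tables, for members listed as higher (red), members listed as lower (blue) and other listed genes (grey); 340 listed genes lie beyond the axes or have a q-value listed as 0. COPG1 and TMED7 are the highest red points, while TMED6 and GOLGA6L19 lie far left near the bottom.

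Position and transcript length were compared with direction, since neither entered the rule. On chromosome 15 the 5 placed members, SEC11A and 4 golgin copies, were all lower, where 19.8% of all listed genes were higher. On chromosome 4 SEC24B and TRAPPC11 were lower, where 16.8% of listed genes were higher. On chromosome 7 SEC61G, TMED4 and COG5 were higher, although 33.0% of listed genes there were. On chromosome 3 SEC61A1, SEC22A, SEC13, COPG1, COPB2 and ARF4 were higher and SEC62 lower, with 60.6% of listed genes higher. All 3 members on chromosome 16 were lower, although 53.5% of listed genes there were higher. All members on chromosomes 1, 5 and 14 (5, 4 and 3) were higher, where 58.2%, 56.0% and 54.2% of listed genes were. COG8 and TMED6, both lower, are neighbours on chromosome 16 with 3686 bases between them, and SAR1B and SEC24A, both higher, on chromosome 5 with 15554 bases between them (GRCh38.p14). What part position has in these directions was not tested.

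Shorter transcripts were more often higher over all listed genes. In the shortest of 3 bands of nearly equal size (up to 2615 bases in GENCODE release 29) 69.2% of listed genes were higher, against 13 of 18 members. In the middle band (2616 to 4623 bases) it was 49.5%, against 10 of 19 members. In the longest band 33.8% of listed genes were higher, against 9 of 14 members. The members listed as higher had a median length of 3414 bases and those listed as lower 4247 bases, for the 51 members with a length. Over all listed genes with a length the medians were 2809 bases for higher and 4287 bases for lower genes.

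For 13 of the 52 members with a position, the gene overlaps another protein-coding gene in the RefSeq table, and whether reads were assigned by strand was not given in the sources used here. ARF4 lies wholly within PDE12, and 3676 bases of COG8 are shared with PDF, both in neither table. Of SEC61A1, 6899 bases are shared with RUVBL1, listed at a log2 fold change of 0.11 per the authors' deposited table. Reads from such partners cannot be told apart from the members' own where the exons overlap.

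Genes that work with the members were counted from lists written for this comparison with earlier results of these data known. The shares therefore describe these lists only. Of 98 partner genes 65 were listed, or 66.3%, beside 37.9% of all protein-coding genes, a base that also counts genes that may not have been in the comparison. Of these 65 genes 49 were higher and 16 lower, or 75.4% higher, beside 50.7% of all listed genes. For ER targeting and translocation 13 of 24 were higher and 4 lower. DDOST, RPN2 and STT3B, of the oligosaccharyltransferase that glycosylates proteins as they enter, were 1.30-fold (q = 2.23e-34), 1.31-fold and 1.38-fold higher, and SSR1, of the translocon-associated complex, 1.40-fold higher per the authors' deposited table. For ER exit and cargo receptors 12 of 22 were higher and 3 lower. YIF1B was 1.83-fold (q = 1.52e-44), PREB, the exchange factor that activates SAR1, 1.48-fold, TFG 1.28-fold and LMAN1 (ERGIC-53), a lectin receptor of glycoproteins, 1.28-fold higher per the authors' deposited table.

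For Golgi-to-ER retrieval 6 of 13 were higher and 1 lower. KDELR3, a receptor of escaped ER proteins, was 1.29-fold, USE1 1.38-fold, RER1 1.12-fold and ARCN1, the COPI delta subunit whose name the rule does not take in, 1.12-fold higher per the authors' deposited table. On the separate list of SNAREs and their recycling factors 7 of 11 were higher and none lower. That depends on how the lists were split, since the SNAREs USE1 and STX18 stood on the retrieval list. STX18, named as an exception for its direction, was 1.21-fold lower (q = 2.73e-03) per the authors' deposited table. NAPA and NSF, which take SNARE complexes apart, were 1.48-fold (q = 1.91e-31) and 1.46-fold higher, and STX5 and BET1L 1.24-fold and 1.18-fold higher per the authors' deposited table.

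Other Golgi tethers and scaffolds were listed in both directions, 4 of 11 higher and 4 lower. BICD2, TGOLN2 and BLZF1 were 1.25-fold, 1.26-fold and 1.42-fold higher and CUX1 1.18-fold lower per the authors' deposited table. Of 7 other Golgi membrane proteins 2 were higher and 2 lower, with GOLT1B 1.34-fold higher and GOLM1 1.22-fold lower per the authors' deposited table. Of 10 transcription factors of secretory genes 5 were higher and 2 lower. CREB3L3 was 3.99-fold, CREB3L2 1.24-fold and XBP1 1.21-fold higher and CREB3L4 1.88-fold lower (q = 1.37e-09) per the authors' deposited table. ATF6, which the naming rule did not select and which was chosen after seeing its value, stood 1.11-fold lower (q = 0.0345) per the authors' deposited table. These are RNA levels, and the activity of such factors was not measured.

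**Figure D5:**
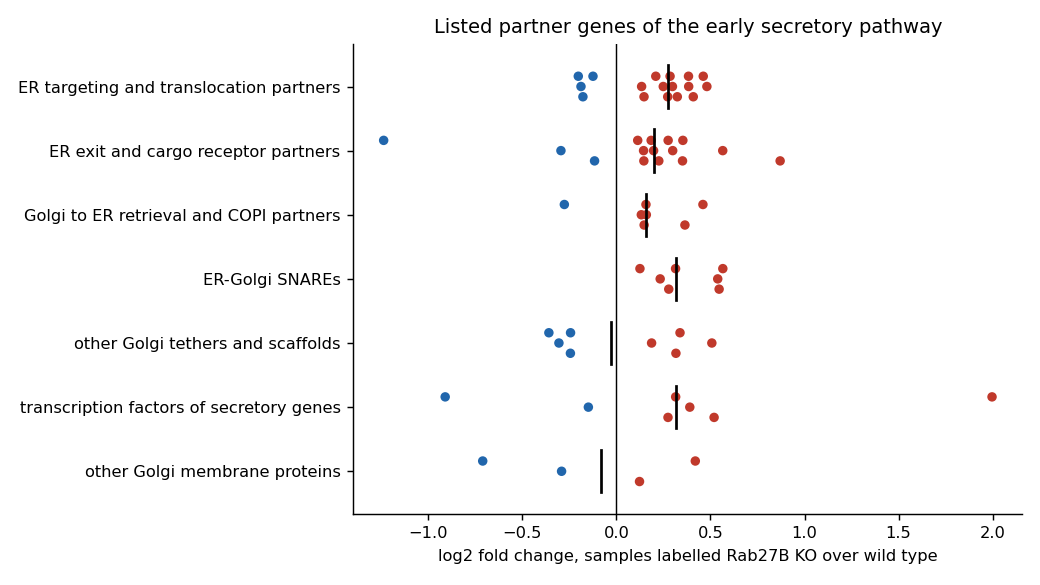
Log2 fold change of each listed partner gene, samples labelled Rab27B KO over wild type, per the authors' deposited tables, with a black line at each list's median; offsets within a row only separate points. The SNARE row has no point below 0, whereas both rows of other Golgi proteins straddle it. The SNARE STX18, below 0, is in the retrieval row.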

How the data were processed

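RNA sequencing of 6 HCT116 cultures was compared by the authors, 3 labelled Rab27B KO and 3 labelled wild type, grouped here by their titles. The submitters' processing notes name HISAT, Bowtie2 and GRCh38. Which step each tool served, how reads were counted and scaled, and which test gave the q-values was not given in the sources used here. Per the file headers, the 2 deposited tables give for each gene the log2 of its fold change and the q-value, and the table of higher genes also the linear ratio by the authors. Folds of lower genes were computed as 2 to the power of the negated log2 value. No test was added, because no values per sample were analysed, and the authors' q-value threshold of 0.05 was used. The depth is unknown.

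The members and lists were chosen with earlier results of these data known. 1 gene of each list of cell type markers is not reported here. The genes named were all members and up to 4 genes per partner list with the smallest q-value, and exceptions are stated. Gene IDs were matched to RefSeq GRCh38.p14 (7656 of 7681, and 52 of 53 members). Lengths are of the longest protein-coding transcript per gene in GENCODE release 29. The name rule, the motif search and the Wilson interval were tested on simulated data. Python 3.11.15, pandas 2.3.3 and scipy 1.17.1 were used.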

Additional observations from a re-analysis of the deposited data

How the results depend on the processing

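No paired analysis was possible because the tables hold no values per sample, and for the same reason no replicate was left out and no other normalization or filter was run. Counts of 33 higher and 20 lower members stayed within 1.5 times of these values at a q-value below 0.01 (26 and 16), by current gene symbols (33 and 19), without near-identical families (29 and 14), without translocon genes (29 and 18) and, an alternative chosen after seeing the data, without the golgin copies and the pseudogene (32 and 15). Without chromosomes 4, 7, 13 and 15 the 30 higher members were within that range and the lower ones came to 13, because 10 members lie there. These were set as chromosomes with few higher genes in the same data. On chromosomes 4, 7 and 15 it was 16.8%, 33.0% and 19.8% of listed genes. A larger share of higher members without them thus follows in part from that choice. The share of higher members ranged from 61.7 to 69.8% and the median log2 fold change from 0.19 to 0.25 over these 6 alternatives. The 69.8% came from leaving out these chromosomes.

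A fold change of at least 1.5 left 9 members, 2 higher and 7 lower, with 22.2% higher and a median log2 fold change of -0.92, the reverse of the main direction. Without the golgin copies 2 higher and 3 lower members passed that fold. The cause was not tested. By role that fold left 0 higher and 0 lower for the translocon, the ARF group, COG and COPI. It left 0 higher and 1 lower for COPII and for TRAPP. Of the p24 genes 1 higher and 1 lower passed, and of the golgin group 1 higher gene, GOLGA7B, and 0 lower. At a q-value below 0.01 there remained 1 lower translocon gene, SEC11A, and 0 lower p24 genes. Of the golgin group 1 higher gene remained, GOLGA7B, while GOLGA5 (q = 0.0165) did not pass. The other counts by role stayed within 1.5 times. The number of reads behind each fold is unknown.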
